A study of Mus musculus with 4 samples.

Results

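Interferon-stimulated genes were followed as a group of 36 named genes in RNA sequencing of mouse fetal liver cells. The 36 genes are members of the response by name, listed with earlier results of these data known. All 36 were found among the 22011 genes of the deposited tables, and all 36 had enough reads to be tested. Each gene was counted on 1 transcript, the one with most reads in the 4 libraries together. The samples were fetal liver cells from animals whose labels read wild type (WT, n = 2) or hnRNP L -/- knockout (KO, n = 2). They are called WT 1, WT 2, KO 1 and KO 2. The study asked how loss of hnRNP L, a splicing regulator that binds RNA, changes the transcripts of these cells. The labels name C57BL/6, LckCre transgenic, tdTomato and EGFP reporter and CD45.1 mice as the animals of the study, without saying which of them gave these samples. No kind of deletion, embryo age or litter is given in the sources used here, so a p-value here speaks of the spread of the 4 libraries only.

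Interferons are secreted proteins that warn cells of virus and other foreign nucleic acid. Type I interferon binds the receptor pair Ifnar1 and Ifnar2, the kinases Jak1 and Tyk2 act on transcription factors such as Stat2, and Stat2 joins Irf9 in a complex, ISGF3, that binds a short element, the interferon-stimulated response element, in the promoters of its targets. The target genes encode sensors, transcription factors that feed back on the response, and effectors that block the translation, copying or release of viruses. In fetal liver, where blood is formed before birth, interferon is also known to act on blood stem cells and on macrophages.

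Mapped reads numbered 70020061 and 111324295 in WT 1 and WT 2 and 97490949 and 96260423 in KO 1 and KO 2, and 33738859 to 56895354 reads per library fell on the genes used. Across all tested genes, log2 levels correlated at 0.987 between the WT libraries, at 0.986 between the KO libraries and at 0.971 to 0.974 between genotypes. Levels are counts per 1000000 reads (CPM) on scaled library sizes, which compare a gene between libraries and not 1 gene with another. The targeted gene, Hnrnpl, had 460, 603, 280 and 269 CPM in WT 1, WT 2, KO 1 and KO 2, and its log2 fold change was -0.95 (SE 0.16, adjusted p = 0.0115 in the quasi-likelihood test of edgeR). By Xist and the Y-linked gene Ddx3y, KO 2 came from a male, while WT 1, WT 2 and KO 1 came from females. WT 1 had 152103 reads on unannotated junctions, against 44924 to 62959 in the other 3 libraries. Markers of erythroid cells summed to 26952 to 64789 CPM and those of hepatocytes to 41038 to 85166 CPM in all 4 libraries, which are the cell types of a fetal liver.

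The promoters were searched for the response element, apart from the levels of the genes. The genes were listed as members of the response, so an excess of the element may come from that choice. A window of 250 bases before to 50 bases after the gene start was on hand for 25 of the 36 genes (RefSeq, GRCm38.p6). The core of the interferon-stimulated response element was searched on both strands as GAAA, any 2 bases and GAAA again, with overlapping matches counted. It was found in 16 of the 25 genes (64%), against 3.99% of all genes with a window. By window it was found in 57.1% of those of the 25 genes and in 1131 of all 32851 windows of the same length (3.44%). Isg15 held 3 matches. Bst2, Gbp3, Ifit1, Ifit3, Irgm1 and Oas1a held 2 each. No match in the window was found for Irf7, Irf9, Ifi44, Ifit2, Ifi35, Oasl1, Oasl2, Dtx3l and Xaf1, which says only that these letters are not in that window. The genes with a match and the smallest p in the comparison of genotypes were Stat2, Ddx58, Oas3, Cxcl10, Igtp and Ifit3. The match of Ddx58 lay after the gene start. For the other 5, the match is shown in capitals with up to 30 bases on each side, 5′ to 3′ on the strand of the gene.

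Stat2, chr10:128270248-128270315, plus strand: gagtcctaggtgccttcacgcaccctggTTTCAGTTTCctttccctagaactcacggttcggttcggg
Oas3, chr5:120777695-120777764, minus strand: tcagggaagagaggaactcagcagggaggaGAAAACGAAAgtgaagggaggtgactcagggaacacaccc
Cxcl10, chr5:92349063-92349132, minus strand: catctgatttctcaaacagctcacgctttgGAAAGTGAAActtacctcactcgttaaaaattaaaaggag
Igtp, chr11:58199492-58199555, plus strand: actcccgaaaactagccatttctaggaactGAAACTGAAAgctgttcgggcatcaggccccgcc
Ifit3, chr19:34583343-34583446, plus strand: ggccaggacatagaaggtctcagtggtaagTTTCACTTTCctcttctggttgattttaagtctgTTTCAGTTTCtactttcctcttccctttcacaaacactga

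The match ended 24 bases before the start of Igtp, 65 before that of Oas3, 112 for the nearer match of Ifit3, 203 for Cxcl10 and 212 for Stat2. Matches are a description of the letters and no binding was measured. The gene coordinates given further on are those of the deposited tables, for which no build is given in the sources used here, and they are not to be mixed with the GRCm38.p6 positions above.

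The response stood highest in 1 of the 2 KO libraries. KO 1 was the highest of the 4 libraries in 35 of the 36 genes, against 22.7% of all tested genes. The exception was Ifit2, which was highest in WT 1. KO 1 was at least 2-fold above each of the other 3 libraries in 18 of the 36 genes, which was so for 0.739% of all tested genes. The 36 genes summed to 450, 324, 870 and 343 CPM in WT 1, WT 2, KO 1 and KO 2. KO 2 thus lay between the WT libraries in this sum, while KO 1 lay above all. These shares describe single libraries and carry no test of the genotype.

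**Figure D1:**
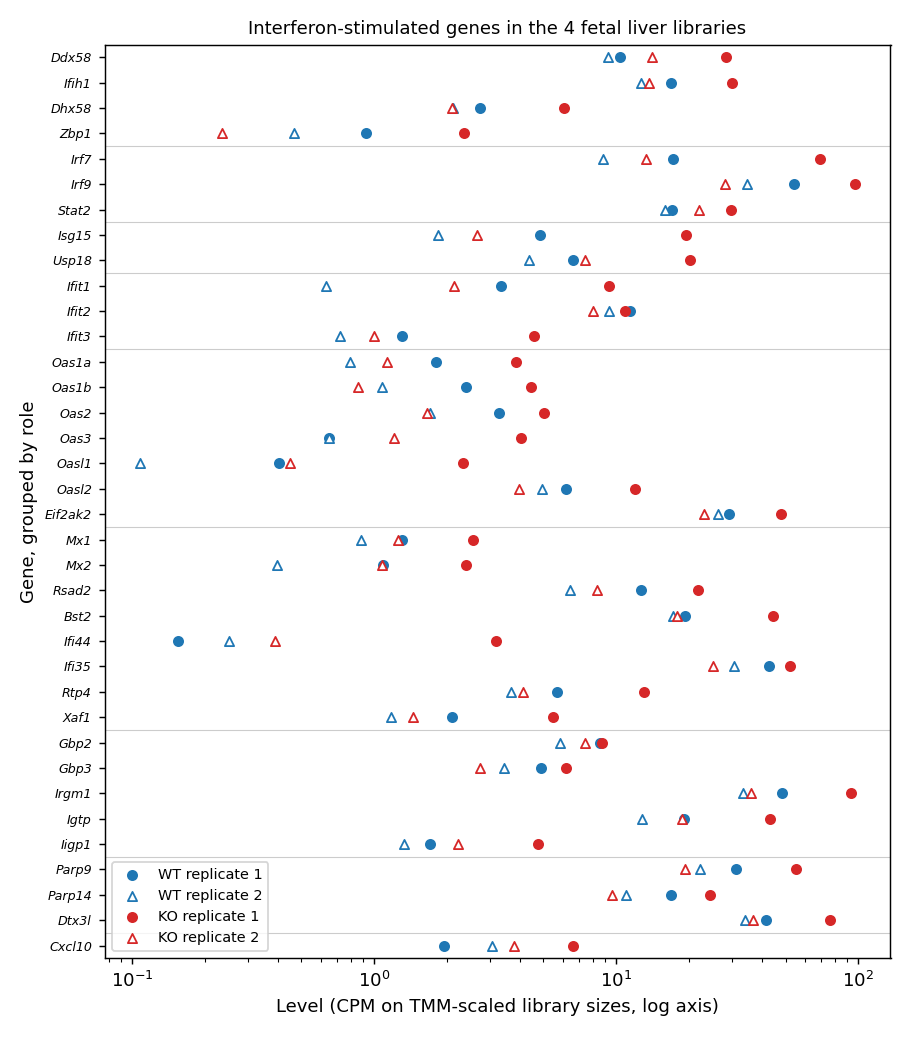
Level of each of the 36 interferon-stimulated genes (rows, grouped by role) in CPM on a log axis, with 1 point per library for WT 1, WT 2, KO 1 and KO 2. The KO 1 point is rightmost for every gene but Ifit2.

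The KO libraries differed from each other in these genes. KO 1 was above KO 2 in all 36 genes and more than 2-fold above it in 32 of them, against 2.54% of all tested genes. The median log2 ratio of KO 1 over KO 2 was 1.42 (0.22 to 3.32) in the 36 genes and 0.00 over all tested genes. Against the mean of the WT libraries, the median log2 ratio was 1.34 (0.07 to 3.96) for KO 1 and -0.15 (-1.58 to 0.94) for KO 2. KO 2 lay within the WT range in 16 genes, below both WT libraries in 12 and above both in 8. Those 8 genes, in which both KO libraries exceeded both WT libraries, were Ddx58, Stat2, Usp18, Oas3, Oasl1, Ifi44, Iigp1 and Cxcl10. They make up 8 of 36, and 33.5% of all tested genes had this order.

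The WT libraries differed too, by less. WT 1 was above WT 2 in 34 of the 36 genes, against 50.7% of all tested genes. The median log2 ratio of WT 1 over WT 2 was 0.56 (-0.70 to 2.41). Ifi44 and Cxcl10 were the 2 exceptions. WT 2 was the highest library in 0 of the 36 genes, against 25.1% of all tested genes. The 36 genes thus stood in the order KO 1, WT 1 and then WT 2 or KO 2 in most cases, and the labels give no condition that follows this order. The names of the deposited tables do pair WT 1 with KO 1, and WT 2 with KO 2, by a shared number. Within each genotype the library with the higher levels was thus of the same pair. What the number marks is not stated, and its part in these levels cannot be told.

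**Figure D2:**
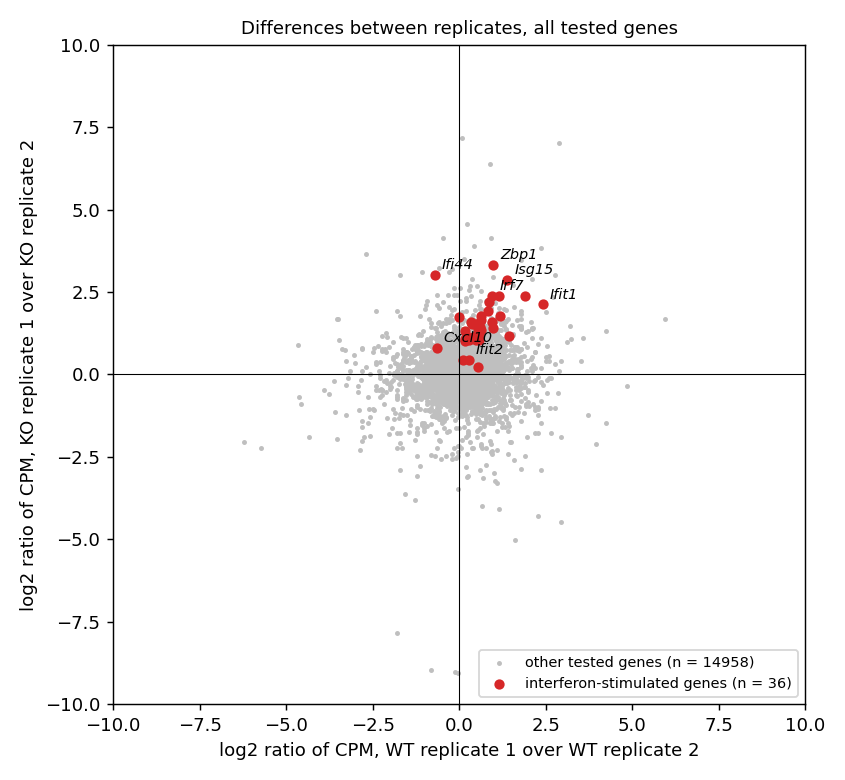
Log2 ratio of CPM between the replicates of each genotype, WT 1 over WT 2 on the x axis and KO 1 over KO 2 on the y axis, for all tested genes (grey) and the 36 interferon-stimulated genes (red). All 36 red points lie above 0 on the y axis, with a median of 1.42, and 34 lie right of 0 on the x axis.

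With both libraries of each genotype in the edgeR test, 3 of the 36 genes were higher in KO, Ddx58, Stat2 and Oas3. This share is close to the 11.4% of all tested genes that were higher. None of the 36 was lower, against 9.44% of all tested genes, and DESeq2 and limma voom also called 0 lower. The fitted log2 fold change was positive in 35 of the 36, with a median of 0.80 (-0.13 to 3.06) against 0.02 over all genes. At an unadjusted p under 0.05 there were 10. The share of all tested genes at an unadjusted p was not computed, here or with a library left out. Such counts therefore have no background to be read against. The 3 calls were lost when WT 1, WT 2 or KO 1 was left out. DESeq2 called 7 of the 36 higher, against 13.1% of all tested genes, adding Cxcl10, Ifi44, Iigp1 and Oasl1. Limma voom called 1, Stat2, against 11.1%. With no filter on low counts edgeR called 21, against 12.6%.

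Which KO library entered decided the count. Without KO 1, edgeR called 0 of the 36 higher, against 8.48% of all tested genes, and 4 had an unadjusted p under 0.05. Their median log2 fold change was then -0.14, and 21 genes changed sign. Without KO 2, edgeR called 22 higher, against 4.42% of all tested genes, with a median log2 fold change of 1.36. Without WT 1 it called 1, Ifit1, against 6.44%, and without WT 2 it called 0, against 4.2%, with 5 at an unadjusted p under 0.05. With 1 library left in a genotype, the test assumes that this library varies like the other genotype.

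**Figure D3:**
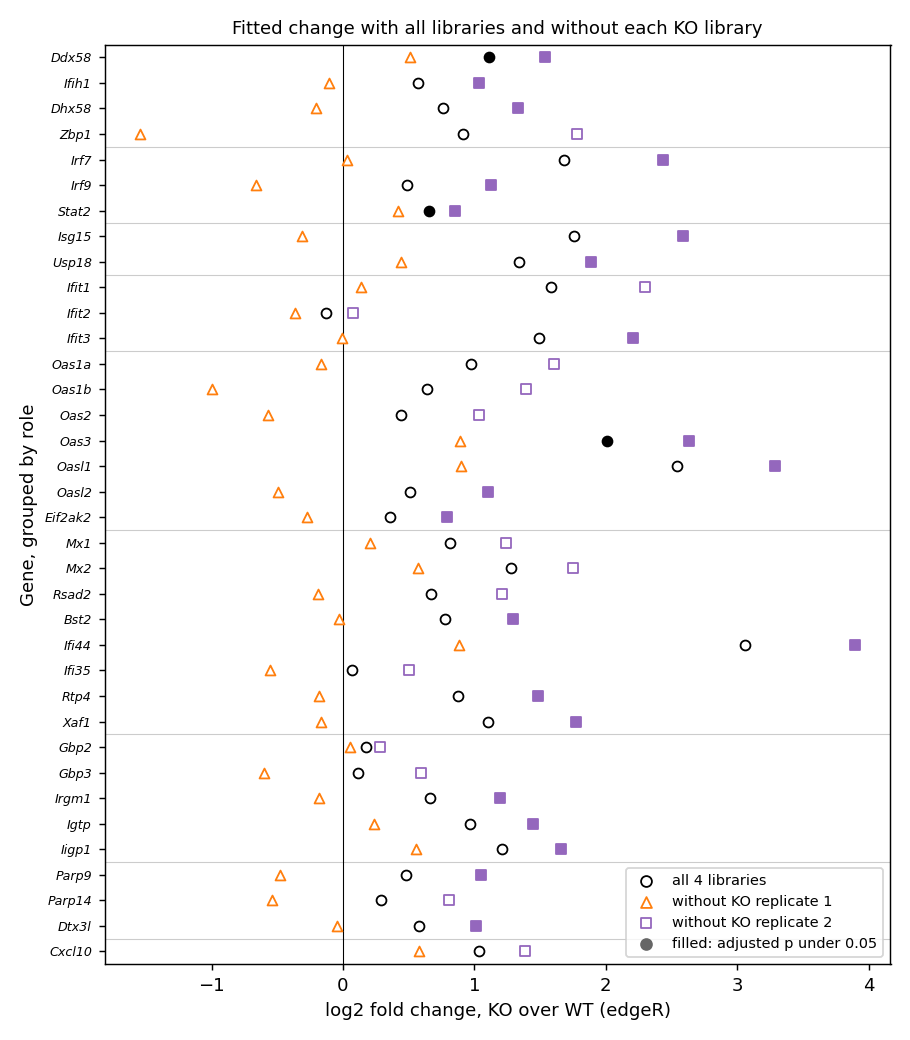
Fitted log2 fold change of KO over WT for each of the 36 genes (rows, grouped by role) with all 4 libraries, without KO 1 and without KO 2. Filled points passed an adjusted p of 0.05, which were 3 genes with all libraries, 0 without KO 1 and 22 without KO 2.

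The sensors of foreign nucleic acid were highest in KO 1 in 4 of 4 genes. Ddx58 (chromosome 4, 40150810 to 40186858, minus strand) encodes RIG-I, a sensor of viral RNA. It had 336, 513, 1365 and 717 reads in WT 1, WT 2, KO 1 and KO 2, or 10.4, 9.23, 28.5 and 13.98 CPM. Both KO libraries lay above both WT libraries, and KO 1 lay at 2.04 times KO 2. Ddx58 rose 2.17-fold, from 9.82 ± 0.825 to 21.2 ± 10.3 CPM (SD, n = 2; SE of the log2 value 0.30, edgeR adjusted p = 0.0399). The adjusted p was 0.113 without KO 1, 0.0758 without WT 1 and 0.118 without WT 2, and 0.0636 by limma voom.

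The related sensors did not pass the test. Ifih1, which encodes the RNA sensor MDA5, had 16.8, 12.6, 29.99 and 13.6 CPM (edgeR adjusted p = 0.254). KO 2 lay between the WT libraries, and KO 1 at 2.04 times the WT mean. Dhx58, which encodes the regulator LGP2, had 2.72, 2.11, 6.06 and 2.09 CPM (edgeR adjusted p = 0.273). Zbp1, a sensor of left-handed nucleic acid, had only 30, 26, 112 and 12 reads, the widest gap between the KO libraries among the 36 genes. KO 1 was 9.995 times KO 2 in it.

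The transcription factors of the response were also highest in KO 1. Stat2 (chromosome 10, 127707632 to 127729905, plus strand) is a part of the ISGF3 complex. It had 551, 880, 1419 and 1131 reads, or 17.1, 15.8, 29.6 and 22.1 CPM. The WT libraries lay close together and both KO libraries above them. Stat2 rose 1.57-fold, from 16.4 ± 0.86 to 25.8 ± 5.36 CPM (SD, n = 2; SE of the log2 value 0.17, edgeR adjusted p = 0.0339). Its adjusted p was 0.13 without KO 1, 0.083 without WT 1 and 0.13 without WT 2, and it was the 1 call shared by edgeR, DESeq2 and limma voom.

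Irf7 (chromosome 7, 148449088 to 148452300, minus strand) is the factor that amplifies type I interferon. It had 553, 490, 3316 and 677 reads, or 17.1, 8.82, 69.3 and 13.2 CPM. KO 1 was 5.34 times the WT mean, while KO 2 lay between the WT libraries. The means were 13.0 ± 5.87 and 41.2 ± 39.6 CPM (SD, n = 2; edgeR adjusted p = 0.11), so the SD in KO was nearly as large as the mean. Irf9, the DNA-binding part of ISGF3, had 54.2, 34.7, 96.6 and 28.1 CPM (edgeR adjusted p = 0.50). KO 2 was the lowest library of the 4 in Irf9 and KO 1 the highest.

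Both genes of ISG15 conjugation were highest in KO 1. Isg15 (chromosome 4, 155573533 to 155574927, minus strand) encodes a ubiquitin-like protein that is joined to other proteins. It had 156, 102, 930 and 136 reads, or 4.83, 1.84, 19.4 and 2.65 CPM. KO 1 was 5.83 times the WT mean and KO 2 was within the WT range (edgeR adjusted p = 0.162). Usp18, which removes ISG15 and damps the receptor, had 6.59, 4.37, 20.1 and 7.41 CPM. Both KO libraries lay above both WT libraries, KO 2 by a small step over WT 1 (edgeR adjusted p = 0.0656).

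The IFIT proteins bind foreign RNA and block its translation. Ifit1 had 108, 35, 446 and 109 reads, or 3.34, 0.630, 9.32 and 2.13 CPM. WT 1 was 5.31 times WT 2 in it, the widest gap between the WT libraries among the 36 genes. Ifit3, whose promoter holds a pair of matches above, had 42, 40, 219 and 51 reads, with KO 1 at 4.53 times and KO 2 at 0.985 times the WT mean. Ifit2 stood apart from its neighbours on chromosome 19. It had 367, 520, 522 and 412 reads, or 11.4, 9.36, 10.9 and 8.04 CPM, and the genotypes overlapped (log2 fold change -0.13, SE 0.21, edgeR adjusted p = 0.691). No match of the element lay in the Ifit2 window, nor in those of Ifi44, Oasl1 and Irf7. A link between matches and levels was not tested.

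The OAS enzymes make a messenger that activates RNase L, and PKR, encoded by Eif2ak2, stops translation on double-stranded RNA. KO 1 was the highest library in all 7 genes of this group. Oas3 (chromosome 5, 121203107 to 121227668, minus strand) had 21, 36, 194 and 62 reads, or 0.650, 0.648, 4.05 and 1.21 CPM. The WT libraries were alike in CPM, but on 21 and 36 reads, too few to fix a level so closely. KO 2 lay above them and KO 1 far above KO 2. Oas3 rose 4.03-fold, from 0.649 ± 0.00144 to 2.63 ± 2.01 CPM (SD, n = 2; SE of the log2 value 0.57, edgeR adjusted p = 0.0448). The adjusted p was 0.31 without KO 1, 0.0981 without WT 1 and 0.116 without WT 2, and 0.114 by limma voom.

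Oasl1, an OAS-like protein that restrains Irf7 translation, had 13, 6, 111 and 23 reads, with KO 1 at 9.08 times the WT mean (edgeR adjusted p = 0.0821). Oasl2 had 6.22, 4.93, 11.9 and 3.96 CPM (edgeR adjusted p = 0.44). In Oasl2, KO 2 was the lowest library. Oas1a, Oas1b and Oas2 had 44 to 240 reads per library and KO 1 at 2.02 to 2.97 times the WT mean, with KO 2 at 0.496 to 0.874 times. Oas1b is known to be truncated in most laboratory strains. Eif2ak2 had 29.3, 26.2, 48.0 and 23.0 CPM (edgeR adjusted p = 0.418), with KO 1 at 1.73 times the WT mean. The OAS genes lie close together and are alike in sequence, and their reads may be shared between copies.

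The antiviral effectors spanned the widest range of levels. Bst2, which encodes tetherin and holds budding virus at the cell surface, had 619, 956, 2131 and 917 reads, or 19.2, 17.2, 44.5 and 17.9 CPM. It had the highest mean level per length of the 36 genes, at 15.9 reads per kilobase and 1000000 mapped reads (RPKM). The WT libraries and KO 2 lay within 1 narrow range and KO 1 was 2.49 times KO 2 (edgeR adjusted p = 0.158). Ifi35, next at 13.6 RPKM, had 42.9, 30.7, 52.1 and 25.04 CPM, and both WT libraries lay between the KO libraries (edgeR adjusted p = 0.894).

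Rsad2, which encodes viperin, an enzyme that makes a chain-ending nucleotide, had 12.7, 6.41, 21.8 and 8.31 CPM (edgeR adjusted p = 0.327). KO 2 lay between the WT libraries. Rtp4 had 5.70, 3.69, 13.0 and 4.12 CPM (edgeR adjusted p = 0.228), again with KO 2 between the WT libraries. The largest ratio of all was that of Ifi44 (chromosome 3, 151393887 to 151412923, minus strand), with 5, 14, 152 and 20 reads and KO 1 at 15.6 times the WT mean (edgeR adjusted p = 0.0573). The GTPase genes Mx1 and Mx2 had 22 to 122 reads per library, and Xaf1 65 to 263. Mx1 is known to be disrupted in most laboratory strains. In Mx1, Mx2 and Xaf1, KO 1 was 2.34 to 3.35 times the WT mean and KO 2 was within the WT range.

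The interferon-inducible GTPases act at the vacuoles of intracellular microbes and answer strongly to type II interferon. Irgm1, their regulator, had 48.3, 33.4, 93.2 and 35.96 CPM (edgeR adjusted p = 0.254). Igtp, also called Irgm3, had 19.1, 12.7, 43.1 and 18.7 CPM (edgeR adjusted p = 0.0985). In both genes KO 1 was more than 2-fold above KO 2, and KO 2 lay within the WT range. Iigp1, also called Irga6, had 55, 74, 228 and 114 reads, with both KO libraries above both WT libraries (edgeR adjusted p = 0.0674).

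The guanylate-binding proteins showed some of the smallest ratios. Gbp2 had 276, 324, 416 and 382 reads, or 8.54, 5.83, 8.69 and 7.45 CPM (edgeR adjusted p = 0.614). KO 1 and WT 1 were nearly level in it. Gbp3 had 4.89, 3.42, 6.22 and 2.73 CPM, and the genotypes overlapped (edgeR adjusted p = 0.859). KO 1 was 1.21 times the WT mean for Gbp2 and 1.498 times for Gbp3.

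The proteins Parp9 and Dtx3l form a complex of an ADP-ribosylating protein and a ubiquitin ligase, and Parp14 is a related enzyme. Dtx3l had 41.5, 34.0, 76.1 and 36.6 CPM (edgeR adjusted p = 0.20). Parp9 had 31.3, 22.1, 55.1 and 19.2 CPM (edgeR adjusted p = 0.444), and Parp14 had 16.9, 11.0, 24.3 and 9.56 CPM (edgeR adjusted p = 0.642). All 3 were highest in KO 1, at 1.74 to 2.06 times the WT mean. Parp9 and Dtx3l overlap by 558 bases on opposite strands, and since counting by strand is not stated, their reads cannot be fully told apart. Cxcl10, the chemokine that draws T cells, had 63, 170, 317 and 194 reads, or 1.95, 3.06, 6.62 and 3.78 CPM (edgeR adjusted p = 0.0676). Both KO libraries lay above both WT libraries. Cxcl10 lies wholly within Art3 on the other strand, a gene with 192 reads in all.

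Low genes showed the larger ratios. Across the 36 genes, the mean WT level in CPM and the log2 ratio of KO 1 over the WT mean had a Spearman correlation of -0.659. The points share libraries and the WT values enter both axes, so this is a description with no test. The 18 genes with KO 1 at least 2-fold above each other library were 5 of 8 effectors, 3 of 7 OAS and PKR genes, 3 of 4 sensors, 2 of 5 GTPases, 2 of 3 IFIT genes, both ISG15 genes and 1 of 3 transcription factors.

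**Figure D4:**
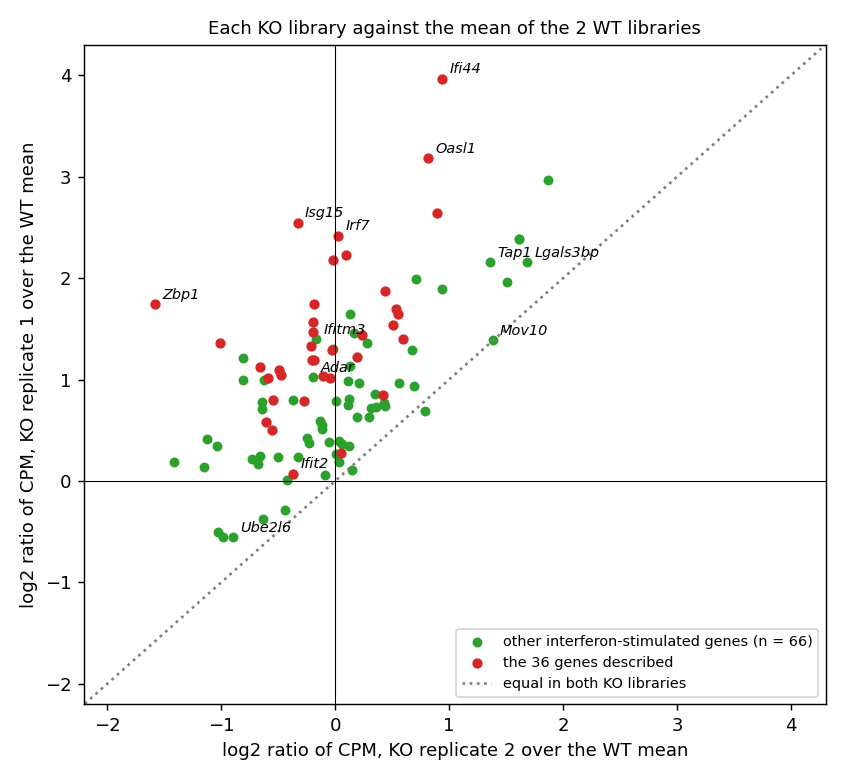
Log2 ratio to the WT mean of KO 2 (x axis) and KO 1 (y axis) for the 36 interferon-stimulated genes (red) and the further interferon-stimulated genes of a second list (green), with a dotted line where both KO libraries are equal. The 36 red points lie above the dotted line.

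Reads across splice junctions gave the same order of libraries, but they come from these same libraries and are no separate sample. The 36 genes had 278, 199, 527 and 243 reads per 1000000 known junction reads in WT 1, WT 2, KO 1 and KO 2, from 1356, 1717, 3769 and 1689 reads. KO 1 was highest in 26 of the 29 genes with at least 20 such reads. The share over all genes by junction reads was not computed. hnRNP L acts in splicing, so the use of each junction relative to the others of its gene was also tested. In 23 of the 36 genes 142 junctions could be tested with diffSpliceDGE of edgeR, and 0 passed, against 0.00379% of all 105434 junctions tested, or 4 junctions. At an unadjusted p under 0.05 there were 2, in Oas1a and Ifih1, and 2.46% of all junctions reached this. The Oas1a junction (chromosome 5, 121352063 to 121355605) had 0, 0, 16 and 1 reads, so its reads came nearly all from KO 1. The other 13 genes had too few junction reads to be tested.

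An unannotated junction of Irgm1, chosen after its values were seen, held 57 of the 147 unannotated junction reads of the 36 genes. It joins the outer ends of the 2 known Irgm1 junctions (chromosome 11, 48680505 to 48684596) and so leaves out the exon between them. It had 21, 6, 19 and 11 reads in WT 1, WT 2, KO 1 and KO 2. Over all genes WT 1 also had the most unannotated junction reads, 152103 against 44924 to 62959, and a link was not tested. The known junctions had 46 and 24 reads in all. The junction that leaves out the exon thus had reads in all 4 libraries, and its use relative to the known ones differed by -0.76 on the log2 scale in KO (diffSpliceDGE, unadjusted p = 0.326), which did not pass.

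The genes upstream of the response were examined in lists of interferon ligands, receptors and signalling genes, and nucleic acid sensing genes. Transcripts of the interferons themselves were nearly absent. Of 19 ligand genes in the files, 9 had 0 reads and 18 had at most 3, and the 19 had 104 reads in all. Ifnb1, interferon beta, had 0, 0, 1 and 1 reads. Ifng, interferon gamma, had 10, 23, 30 and 28 reads and was the only ligand tested (edgeR adjusted p = 0.344).

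The receptors did not follow the order of the 36 genes. Ifnar1 had 164, 141, 153 and 137 CPM (edgeR adjusted p = 0.726) and Ifnar2 had 118, 99.8, 115 and 89.5 CPM (edgeR adjusted p = 0.704). The genotypes overlapped in both. Of 20 tested receptor and signalling genes, 1 rose and 1 fell, against 11.4% and 9.44% of all tested genes, with a median log2 fold change of -0.02. Stat3 rose by 0.41 on the log2 scale (edgeR adjusted p = 0.0484) and Jak2, the kinase of the type II receptor and of the erythropoietin receptor, fell by 0.65 (edgeR adjusted p = 0.0152). The kinases Jak1 (edgeR adjusted p = 0.935) and Tyk2 (edgeR adjusted p = 0.713) did not pass. With 1 library left out, the Stat3 call was lost whichever it was (edgeR adjusted p of 0.0663 to 0.227), and the Jak2 call was lost without WT 2 (0.0688) or KO 2 (0.0566).

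Of 31 tested sensing genes, 2 rose and 3 fell, with a median log2 fold change of -0.10. Over all tested genes 11.4% rose and 9.44% fell, so these counts do not set the list apart. In these 5 genes both KO libraries lay to the same side of both WT libraries, which a choice by the test favours. Ticam1, the adaptor of Toll-like receptor 3, rose by 0.54 on the log2 scale (edgeR adjusted p = 0.0252), with 17.9, 19.2, 26.1 and 27.99 CPM. The kinase Ikbke rose by 0.58 (edgeR adjusted p = 0.0293), with 14.1, 12.9, 19.2 and 21.1 CPM. The RNase H2 subunits Rnaseh2b and Rnaseh2a, which remove ribonucleotides from DNA, fell by 0.72 (edgeR adjusted p = 0.00998) and 0.65 (edgeR adjusted p = 0.0116). Rnaseh2b had 86.5, 97.5, 57.6 and 54.1 CPM, and Rnaseh2a had 47.2, 51.0, 31.7 and 30.8 CPM. The DNA sensor Aim2 fell by 0.73 (edgeR adjusted p = 0.0201), with 15.6, 14.5, 9.57 and 8.66 CPM. Irf3, which starts interferon transcription, had 60.4, 56.0, 60.0 and 50.7 CPM (edgeR adjusted p = 0.71). The calls of Ticam1, Ikbke and Aim2 were lost without WT 1, WT 2 or KO 2 (edgeR adjusted p of 0.0598 to 0.148) and that of Rnaseh2a without WT 2 (0.0537), while Rnaseh2b passed whichever library was left out.

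A second list of interferon-stimulated genes outside the 36 showed the order more weakly. KO 1 was highest in 54 of the 66 tested, against 22.7% of all tested genes. It was at least 2-fold above each other library in 7, against 0.739%, among them Ifitm3, Irgm2, Sp100, Slfn5, Oas1g and I830012O16Rik, chosen after their values were seen. The test called 8 higher and 1 lower, against 11.4% and 9.44% of all tested genes, so the share of higher genes is close to that background. The median log2 fold change was 0.40, against 0.02 over all tested genes. The 6 with the smallest p were high or low in both KO libraries, which a choice by smallest p favours. Lgals3bp, a secreted galectin-binding protein, had 33.9, 33.2, 150 and 108 CPM and rose 3.84-fold (edgeR adjusted p = 0.00418). The RNA helicase gene Mov10 had 18.2, 25.7, 57.3 and 57.2 CPM and rose 2.602-fold (edgeR adjusted p = 0.00676). The peptide transporter gene Tap1 had 5.05, 5.67, 23.9 and 13.7 CPM and rose 3.49-fold (edgeR adjusted p = 0.00891).

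Tdrd7 rose 1.71-fold (edgeR adjusted p = 0.0182) and Ly6e 1.67-fold (edgeR adjusted p = 0.0189). Ube2l6, the enzyme that passes ISG15 to its targets, was the 1 lower gene, with 588, 564, 392 and 310 CPM. It fell to 0.610 of WT (edgeR adjusted p = 0.0214). Without KO 1 the list had 4 higher, against 8.48% of all tested genes, and 2 lower, with a median of 0.02. Without KO 2 it had 16 higher, against 4.42%, and 0 lower, with a median of 0.73. Without WT 1 it had 7 higher, against 6.44%, and 0 lower. Without WT 2 it had 3 higher, against 4.2%, and 1 lower. Lgals3bp, Mov10 and Tap1 passed whichever library was left out. The calls were lost for Tdrd7 without WT 1, WT 2 or KO 1, for Ly6e without WT 2 or KO 2, and for Ube2l6 without WT 1, WT 2 or KO 2 (edgeR adjusted p of 0.0523 to 0.0747).

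By their sums, markers of cell types followed other full orders of the libraries than the main list of interferon-stimulated genes. Within each genotype the order was mostly shared with that list. WT 1 lay above WT 2, and KO 1 above KO 2, in the sums of every marker list but the endothelial one. The counts of called markers stand beside 11.4% higher and 9.44% lower over all tested genes. In whole tissue, fewer cells of a type and less RNA per cell cannot be told apart. Macrophage and Kupffer cell markers summed to 836, 600, 689 and 554 CPM, highest in WT 1, with 3 of 13 tested higher and 2 lower. Plasmacytoid dendritic cell markers, of the main makers of type I interferon, summed to 76.1, 62.3, 30.5 and 29.2 CPM, with 0 of 10 higher and 2 lower. Pld4 among them had 40.9, 29.6, 5.87 and 3.10 CPM (edgeR adjusted p = 0.00449). Most of the gap between the genotypes in the sums of this list thus came from Pld4 alone. Siglech, their defining marker, was not called (edgeR adjusted p = 0.0559). Its reads were few, at 41, 41, 18 and 8, or 1.27, 0.738, 0.376 and 0.156 CPM. Pld4 and Siglech were lower in both KO libraries than in both WT libraries. This did not hold for every marker of the list, and KO 1 was the highest library in 2 of the 10 tested.

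Monocyte and granulocyte markers summed to 854, 712, 1407 and 1068 CPM, with 6 of 14 higher and 1 lower, and were highest in KO 1. T and NK cell markers summed to 13.7, 10.4, 11.6 and 8.54 CPM, with 0 of 6 higher and 0 lower. Those of B lymphoid cells summed to 19.01, 12.8, 8.29 and 7.24 CPM, with 0 of 9 higher and 3 lower. Erythroid markers summed to 64789, 56440, 36744 and 26952 CPM, with 8 of 13 lower. Hepatocyte markers were at 56438, 41038, 85166 and 70933 CPM and endothelial markers at 559, 623, 919 and 983 CPM, with 3 of 10 and 6 of 10 higher. KO 1 was highest in 9 of 10 tested hepatocyte and 7 of 14 monocyte and granulocyte markers, against 22.7% of all tested genes. The counts were 3 of 10 endothelial, 4 of 13 macrophage, 0 of 13 erythroid and 0 of 9 B lymphoid markers. With 1 library left out, the median log2 fold change was -1.17 to -0.53 for erythroid and 0.44 to 1.03 for hepatocyte markers. It was 0.46 to 0.70 for endothelial, 0.11 to 0.86 for monocyte and granulocyte and -0.59 to 0.00085 for macrophage markers. No tested marker had KO 1 at least 2-fold above each other library. Among the markers too low to be tested, Ly6c1, with 2, 4, 39 and 6 reads, and Cd3d, with 1, 0, 4 and 2 reads, both chosen after their values were seen, had this order. The part of cell composition, of sex or of the slide in the level of the 36 genes was not tested.

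**Figure D5:**
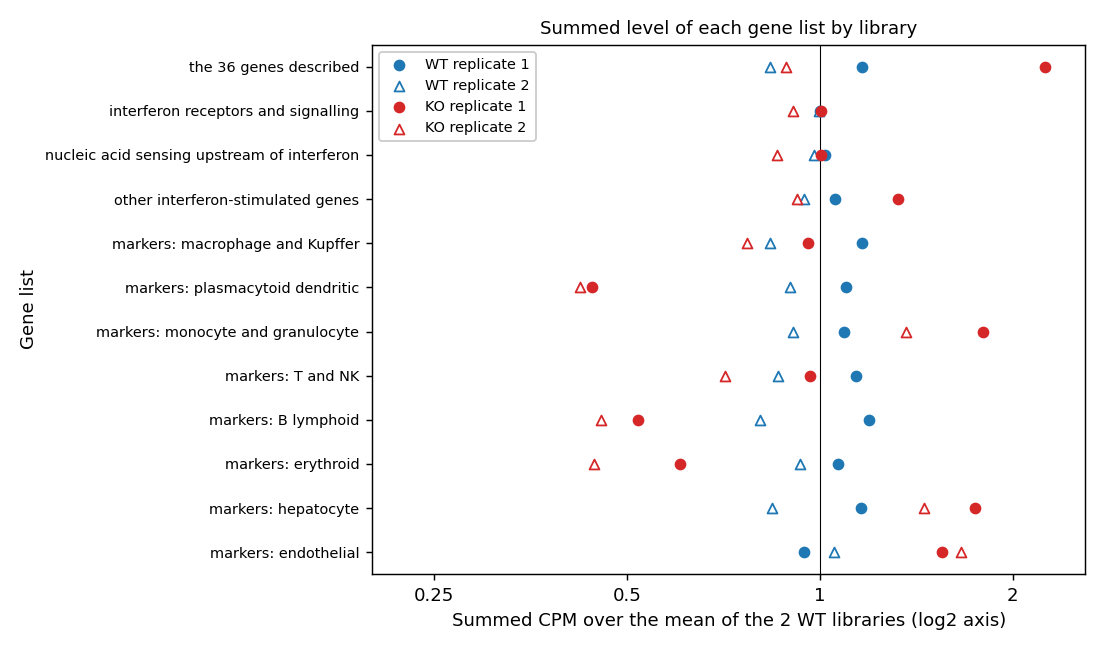
Summed CPM of each gene list in WT 1, WT 2, KO 1 and KO 2, divided by the mean of the WT libraries, on a log2 axis. The 36 interferon-stimulated genes stand apart in KO 1 alone, at 870 CPM against 324 to 450 CPM in the other libraries, while the erythroid, hepatocyte and endothelial lists move in both KO libraries.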

How the data were processed

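RNA of fetal liver cells from 2 WT and 2 KO mice was depleted of ribosomal RNA, cut with RNase III, selected for 150 to 300 bp and amplified for 12 PCR cycles, with 2 libraries on each of 2 slides, per the labels' protocols. The labels do not say which libraries were on the same slide. The authors deposited a raw read count per RefSeq transcript for each library. Per the file headers, reads were primary alignments, the least mapping quality was 10, the score clear zone was 5 and the minimum score 0. The deposited tables also give RPKM by the authors, which matched a recomputation from counts in 100% of values and was used only to compare levels per length, and reads per nucleotide, a coverage signal deposited by the authors and not used. Further deposited tables hold the raw count of reads per splice junction. No aligner or genome build is given in the sources used here.

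The 28283 transcripts were reduced to 22011 genes by the transcript with most reads, since isoforms can share reads. Counts were tested in edgeR 4.0.16 (R 4.3.3) by quasi-likelihood, with TMM scaling, filterByExpr and Benjamini-Hochberg adjustment over 15029 genes, with a threshold of 0.05. The SE is the size of the log2 fold change over the square root of F. An exact permutation test of 2 against 2 libraries cannot give a p below 0.333. Junction usage was tested with diffSpliceDGE on junctions with at least 10 reads. Both tests were checked on simulated data. DESeq2 1.42.0, limma 3.58.1 (voom), other scalings and filters, summed transcripts, leaving out each library and a replicate block were tried as alternatives. Described in full were genes past the threshold or with at least 1000 reads, and of the pathway lists at most 6 genes past the threshold plus Ifnar1, Ifnar2, Jak1, Tyk2 and Irf3. One further gene of that rule is not reported here. Of 246 symbols in the 12 pathway and marker lists, 232 were in the files. The 36 genes and the lists were chosen with earlier results of these data known.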

Additional observations from a re-analysis of the deposited data

How the results depend on the processing

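The count of 3 higher genes among the 36 was also 3 with RLE or upper-quartile scaling, with at least 100 reads and with summed transcripts. It was 7 with DESeq2, 1 with limma voom and 21 with no filter on low counts. It ranged from 0 to 22 when 1 library was left out. Over all genes, 1708 were higher and 1419 lower, and 648 to 1308 were higher and 338 to 1187 lower when 1 library was left out. The cause was not tested. The deposited tables of WT 1 and KO 1, and of WT 2 and KO 2, share a number in their names, a pairing the labels do not state. With this number as a replicate block, 12 of the 36 were higher, and of all 15029 genes tested 2337 were higher and 1998 lower. The share of higher genes was thus larger among the 36 than over all genes, which was not so without the block. Under the block the log2 fold change of Ifi35 was -0.0048, and no other sign turned. The deviations of same-numbered libraries correlated at 0.136.

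Leaving out 1 library turned the sign of 23 genes, in 21 of them without KO 1. Their log2 fold changes ranged as follows over the 4 libraries left out: Ifih1 from -0.11 to 1.03, Dhx58 from -0.21 to 1.33, Zbp1 from -1.54 to 1.78, Irf9 from -0.66 to 1.12, Isg15 from -0.31 to 2.58, Ifit2 from -0.37 to 0.077, Ifit3 from -0.0038 to 2.21, Oas1a from -0.17 to 1.64 and Oas1b from -0.99 to 1.39. Those of Oas2 ranged from -0.57 to 1.03, Oasl2 from -0.49 to 1.10, Eif2ak2 from -0.27 to 0.79, Rsad2 from -0.19 to 1.23, Bst2 from -0.027 to 1.29, Ifi35 from -0.56 to 0.51, Rtp4 from -0.18 to 1.48 and Xaf1 from -0.17 to 1.77. Those of Gbp2 ranged from -0.082 to 0.47, Gbp3 from -0.60 to 0.59, Irgm1 from -0.19 to 1.19, Parp9 from -0.48 to 1.05, Parp14 from -0.54 to 0.81 and Dtx3l from -0.046 to 1.01. No junction of the 36 genes passed under any alternative tried. Depth limits the ratios of low genes such as Ifi44 and Oasl1, with 5 to 14 reads in a WT library. It also limits that of Oas3, which passed with all libraries and had 21 and 36 reads in WT 1 and WT 2.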
